A study of Mus musculus with 39 samples.

Results

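The genes described here carry ammonia through the liver: the urea cycle enzymes and their mitochondrial partners, and the enzymes that make and split glutamine. The 9 genes followed were Nags, Cps1, Otc, Ass1, Asl, Slc25a15, Oat, Glul and Gls2, and members were the array probes whose RefSeq accession belongs to them. A probe was matched for 7 of the 9 genes (9 probes, among 17012 genes and 25903 RefSeq probes in all); Cps1 and Slc25a15 had none and were not analysed here. Otc and Glul had 2 probes each, and the brighter of them, by mean signal, stands for the gene.

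Livers came from 39 male C57BL/6J mice, bought young and housed singly throughout. The aggressor-exposed (AggE) mice sat in a small cage inside the home cage of an SJL aggressor for 6 hrs a day without food, with short bouts of direct contact, and the Ctrl mice had the same schedule with no aggressor present, so that both groups shared the fasting, the handling and the 1-hr-earlier cue of the partition test. After 5 daily sessions, livers were taken at 24 hrs (4 Ctrl and 5 AggE mice) and at 1.5 wks (4 Ctrl and 5 AggE mice), and after 10 sessions at 24 hrs (4 Ctrl and 5 AggE mice) and at 4 wks (6 Ctrl and 6 AggE mice). Liver RNA, labeled with Cy5, was set on 2-color arrays against a reference RNA pooled from mouse cell lines and labeled with Cy3, with no dye swap. Values are log2 ratios of liver over reference, so a level can be compared between mice for a gene, and not between genes.

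The liver turns ammonia into urea in periportal hepatocytes. Nags makes N-acetylglutamate, the activator of Cps1, which with Otc works in the mitochondria; Ass1, which brings in the nitrogen of aspartate, and Asl follow in the cytosol. Slc25a15 returns ornithine to the mitochondria, and Oat, most abundant in perivenous cells, converts ornithine to glutamate semialdehyde. Gls2, the periportal liver glutaminase, frees ammonia from glutamine, and Glul, glutamine synthetase, traps the ammonia that passes the cycle in the last hepatocytes around the central vein. Transcription of the urea cycle enzymes is known to answer to protein intake, glucagon and glucocorticoids.

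Upstream sequence was available in the RefSeq promoter table (build GRCm38.p6) for 6 of the 9 genes. The 250 bases before the start are shown for Ass1 and Glul, whose calls the report turns on, and for Nags and Oat, which varied with Ass1 among mice. They lie at chr2:31470020-31470269 (plus strand), chr11:102145263-102145512 (plus), chr7:132576399-132576648 (minus) and chr1:153899679-153899928 (plus), are printed 5′ to 3′ on the gene's strand, and have in capitals every match, on either strand, to the 7 motifs searched.
Ass1: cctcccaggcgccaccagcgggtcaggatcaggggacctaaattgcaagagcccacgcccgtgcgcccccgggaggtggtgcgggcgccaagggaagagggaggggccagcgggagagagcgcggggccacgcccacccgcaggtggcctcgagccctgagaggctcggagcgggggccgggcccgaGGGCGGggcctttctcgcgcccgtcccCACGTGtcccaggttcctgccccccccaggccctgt
Nags: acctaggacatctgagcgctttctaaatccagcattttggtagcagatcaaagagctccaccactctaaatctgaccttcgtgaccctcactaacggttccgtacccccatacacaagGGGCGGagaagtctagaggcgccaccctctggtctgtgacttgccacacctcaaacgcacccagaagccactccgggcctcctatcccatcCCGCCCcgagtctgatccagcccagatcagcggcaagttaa
Oat: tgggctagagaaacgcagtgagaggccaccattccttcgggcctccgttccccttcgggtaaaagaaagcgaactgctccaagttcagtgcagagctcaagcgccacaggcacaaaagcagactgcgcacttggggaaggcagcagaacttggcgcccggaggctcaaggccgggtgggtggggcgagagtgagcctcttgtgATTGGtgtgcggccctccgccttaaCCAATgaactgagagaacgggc
Glul: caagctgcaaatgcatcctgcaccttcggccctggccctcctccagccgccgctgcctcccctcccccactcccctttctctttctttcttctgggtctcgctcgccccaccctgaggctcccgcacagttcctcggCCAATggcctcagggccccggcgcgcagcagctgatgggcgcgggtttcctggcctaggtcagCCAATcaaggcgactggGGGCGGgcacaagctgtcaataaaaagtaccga
The motifs were the TATA box (letters TATAAA), the CCAAT box, the GC box (letters GGGCGG), the E-box (letters CACGTG), the full cAMP response element (letters TGACGTCA) with its core (letters TGACG, held within the full element), and the glucocorticoid response element, an imperfect palindrome. Ass1 held a GC box and an E-box, Nags a GC box on each strand, Oat a CCAAT box on each strand, and Glul 2 CCAAT boxes and a GC box. Of 32817 promoter windows of this length, 32.7% held a GC box, 33.8% a CCAAT box and 6.02% an E-box. No match to TATAAA (in 12.4% of windows), TGACGTCA (1.55%), TGACG (17.7%) or the glucocorticoid element (0.387%) lay in the 4 windows, which says only that these letters are not there.

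The share of probes well above background in Cy5 ran from 15.2% to 70.4% over the 39 arrays, with group medians of 22.4% to 29.8% in the 5-day groups and 38.5% to 53.4% in the 10-day groups. Of the probes followed here, 6 of the 7 were well above background on all 39 arrays, and Nags on 37, and no spot was saturated in Cy5. By mean log2 signal Nags (7.08) and Otc (7.94) were the dimmest, and the others ran from 9.44 to 11.1. The second probes of Otc and Glul (7.33 and 6.94) were well above background on 38 and 27 arrays. All 8 hepatocyte marker genes (among them Alb, Ttr and Apoa1) were well above background on at least 1 array of every group. Arrays lie 4 to a slide, and at 24 hrs no slide held Ctrl and AggE mice of the same regimen, so slide and exposure cannot be told apart there. A slide held both groups at 1.5 wks (slide 7, with 3 Ctrl mice and AggE mouse 5) and at 4 wks (slide 9, with 3 Ctrl mice and AggE mouse 1). In whole liver, fewer cells of a type and less RNA per cell cannot be told apart.

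**Figure D1:**
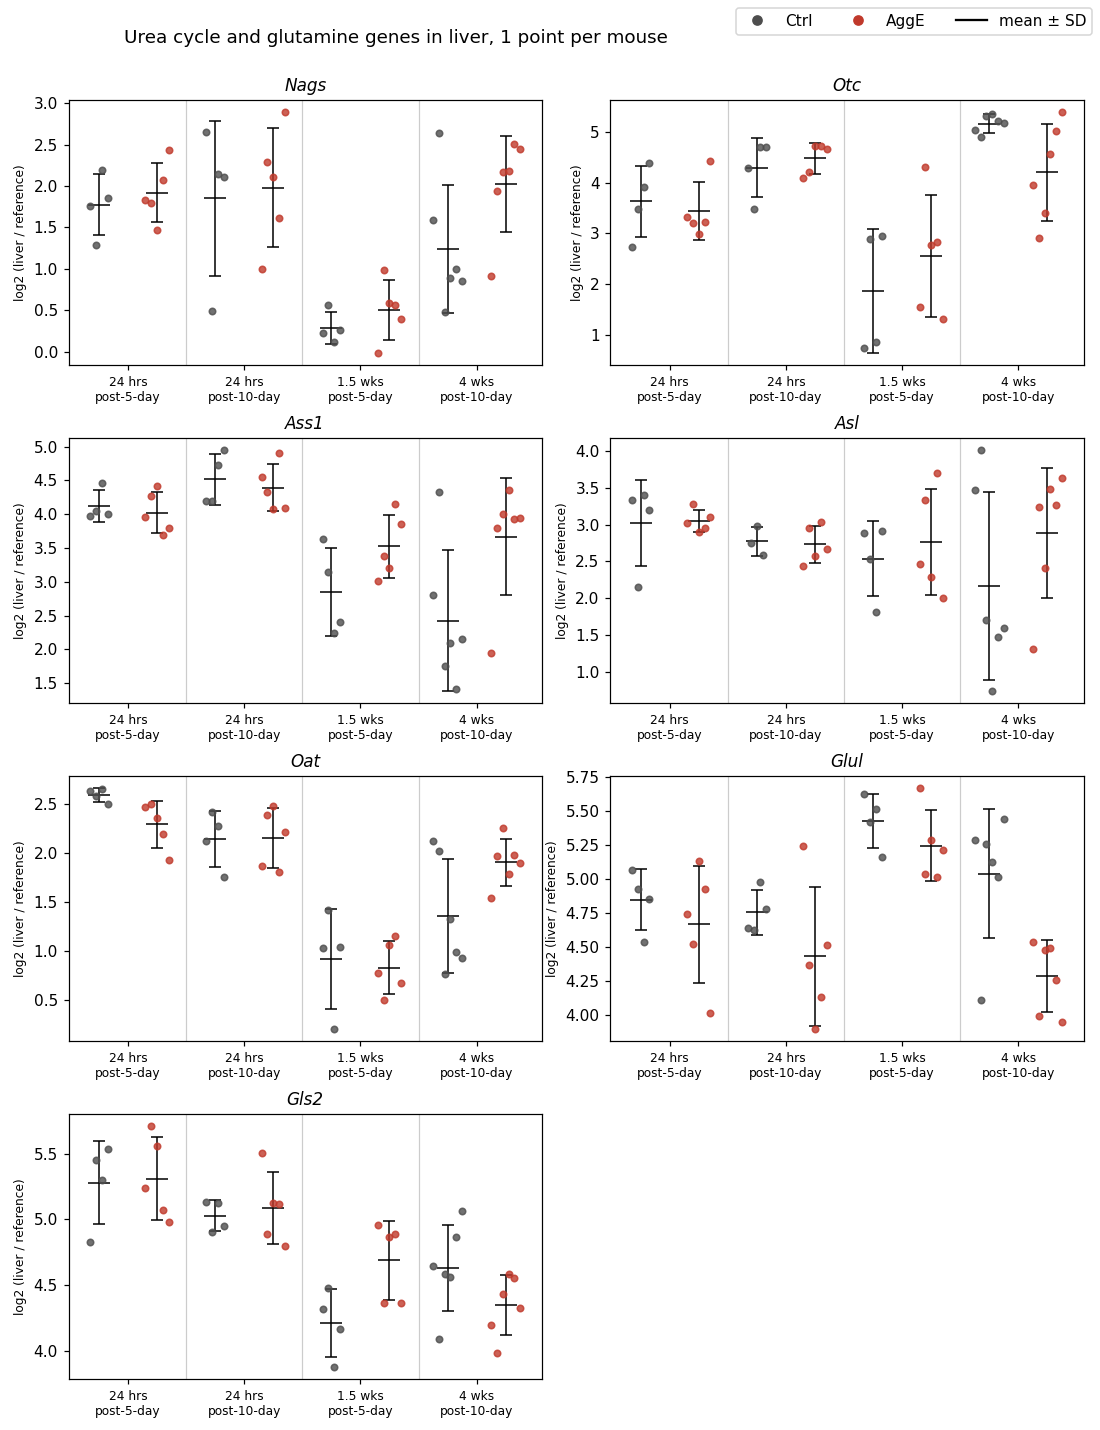
Log2 ratio of liver over reference RNA (y axis of each panel) for the 7 genes in the 4 pairs of groups (x axis), 1 point per mouse, with the mean and SD of each group in black. Ctrl and AggE overlap in nearly every pair, Ass1 and Glul separate most at 4 wks, and Nags and Oat are low at 1.5 wks in both groups.

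At 24 hrs post-5-day stressor, the first question is whether the acute exposure altered ammonia handling genes. None of the 7 genes passed limma's moderated test at an adjusted p of 0.05 or less, where 3.04% of all genes did, and 0 of 7 reached an unadjusted p of 0.05, where 16.7% of all genes did. The log2 changes of the 7 genes (AggE minus Ctrl) ran from -0.30 (Oat) to 0.14 (Nags), with a median of -0.098 beside -0.00073 over all genes. The median was -0.51 with no normalization between arrays, 0.011 with array weights and 0.055 without Ctrl mouse 4. Oat, the ornithine aminotransferase, measured 2.63, 2.58, 2.66 and 2.51 in the Ctrl mice and 2.48, 2.50, 2.36, 2.20 and 1.93 in the AggE mice. Its AggE values all lay below the Ctrl values, by 0.30 on average (SE 0.23, adjusted p = 0.57), the sole member whose groups did not overlap, against 7.41% of all genes. For the enzymes of the cycle the 95% confidence intervals of the change were -0.64 to 0.92 (Nags), -1.22 to 0.83 (Otc), -0.94 to 0.74 (Ass1) and -0.93 to 0.99 (Asl), so that a change inside them could not be told from none. Glul (-0.65 to 0.29) and Gls2 (-0.33 to 0.40) had narrower intervals.

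At 24 hrs post-10-day stressor, 0 of the 7 genes were called by limma (0.0941% of all genes were), and 0 of 7 reached an unadjusted p of 0.05 (2.82% of all genes). The changes ran from -0.32 (Glul) to 0.19 (Otc), with a median of 0.0077, and the groups overlapped for all 7 genes (1.86% of all genes did not). The median turned to -0.30 with no normalization between arrays and to -0.12 in the processed signals, and ran from -0.084 (without Ctrl mouse 2) to 0.052 (without Ctrl mouse 3) with single mice left out. The summed ratio of the leukocyte and Kupffer cell markers ran from 18.6 to 31.4 in Ctrl and from 31.7 to 36.9 in AggE here; its part in these values was not tested. Glul was 4.64, 4.62, 4.98 and 4.78 in the Ctrl mice and 5.24, 4.36, 3.89, 4.13 and 4.51 in the AggE mice. Although 4 of the 5 AggE values lay below all Ctrl values, the highest value of either group was AggE mouse 1, and the change of -0.32 (SE 0.23, adjusted p = 1.00) was within the spread. Asl rested on 3 Ctrl mice here, since the spot of Ctrl mouse 3 was an outlier and was set to missing; its change was -0.039 (SE 0.52).

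The labels of the 1.5-wk mice do not all give the same regimen: the source names and descriptions give 5 sessions, while the titles of all 5 AggE mice and of Ctrl mouse 4 carry a code for 10. At 1.5 wks post-5-day stressor, limma called 0 of the 7 genes, as it called 0% of all genes. At an unadjusted p of 0.05, 1 of the 7 passed, Gls2, higher in AggE, against 2.48% of all genes. Gls2 was 4.32, 4.48, 3.87 and 4.17 in the Ctrl mice and 4.96, 4.36, 4.87, 4.89 and 4.36 in the AggE mice. Of the 5 AggE values, 3 lay above the Ctrl range and the 2 at 4.36 within it. Its change was 0.48 (SE 0.18, unadjusted p = 0.012, adjusted p = 1.00), 0.37 (unadjusted p = 0.066) without Ctrl mouse 3 and 0.46 (unadjusted p = 0.026) without Ctrl mouse 4.

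The value of Gls2 at 1.5 wks was 0.36 (unadjusted p = 0.087) with slide as a random block. On slide 7, AggE mouse 5 stood 0.14 above the mean of the 3 Ctrl mice, and with slide as a fixed block the change was 0.037 (unadjusted p = 0.88). Both scan days held both groups: on day 1 (3 Ctrl and 4 AggE mice) the difference was 0.55, and on day 2 (1 mouse each) 0.20. With scan day as a block, a setting added after the data were seen, it was 0.47. The other members changed by -0.19 (Glul) to 0.69 (Otc), and 5 of the 7 were higher in AggE, with a median of 0.22 beside -0.0034 over all genes. Leaving out single mice moved this median from 0.092 (without AggE mouse 2) to 0.41 (without AggE mouse 5), and the Otc change from 0.25 (without AggE mouse 2) to 1.06 (without Ctrl mouse 4). With slide as a fixed block the median was -0.20, and Asl (-0.34) and Otc (-0.20) were lower in AggE. Otc had the widest spread: 0.75, 2.88, 0.87 and 2.95 in Ctrl, and 1.56, 4.31, 2.77, 2.83 and 1.31 in AggE. The groups overlapped for all 7 genes (0.841% of all genes did not).

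**Figure D2:**
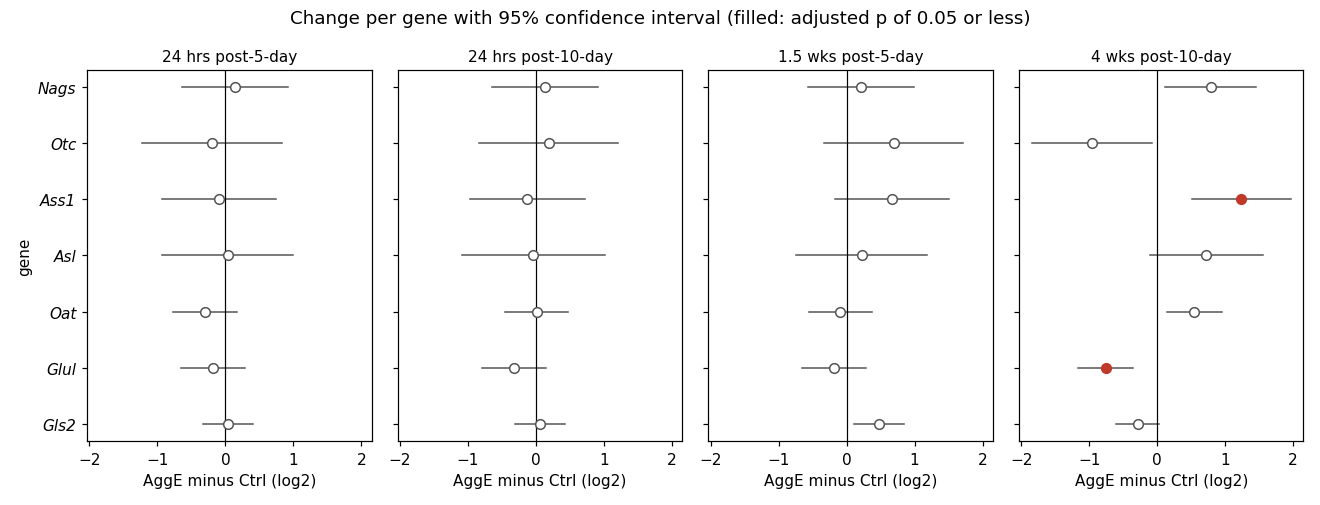
Change per gene (y axis) as AggE minus Ctrl on the log2 scale (x axis) in the 4 comparisons, with 95% confidence intervals; filled points have an adjusted p of 0.05 or less. The filled points are Ass1 (1.24) and Glul (-0.76) at 4 wks, where the genes spread from -0.96 to 1.24, against -0.30 to 0.14 at 24 hrs post-5-day stressor.

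At 4 wks post-10-day stressor, Ass1 was higher and Glul lower in AggE mice, and these were the 2 of 7 genes that limma called; 4.18% of all genes were called. Ass1, argininosuccinate synthase, ran in the 6 Ctrl mice from 1.41 to 4.33 (median 2.12) and in the 6 AggE mice from 1.94 to 4.36 (median 3.94). In AggE, 5 of the 6 mice lay between 3.80 and 4.36, above 5 of the 6 Ctrl mice, while AggE mouse 1 (1.94) was in the range of the Ctrl mice and Ctrl mouse 2 (4.33) in that of the AggE mice. The means were 2.42 ± 1.04 (SD, n = 6) in Ctrl and 3.66 ± 0.86 (SD, n = 6) in AggE, a change of 1.24 (SE 0.36, 2.36-fold, adjusted p = 0.045). Glul, glutamine synthetase, ran from 4.11 to 5.44 (median 5.19) in Ctrl and from 3.95 to 4.54 (median 4.37) in AggE. All 6 AggE values lay below those of 5 Ctrl mice, and Ctrl mouse 2 (4.11) was again among the AggE mice. The means were 5.04 ± 0.48 (SD, n = 6) and 4.28 ± 0.26 (SD, n = 6), a change of -0.76 (SE 0.20, 1.69-fold lower in AggE, adjusted p = 0.031).

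Of the other 5 genes at 4 wks, 3 reached an unadjusted p of 0.05 without passing the adjusted test: Oat, Nags and Otc (with Ass1 and Glul 5 of 7, against 22.8% of all genes). Oat ran from 0.77 to 2.13 (median 1.16) in Ctrl and from 1.54 to 2.26 (median 1.94) in AggE, a change of 0.55 (SE 0.20, adjusted p = 0.11). Nags, which makes the activator of the cycle, ran from 0.48 to 2.64 (median 0.94) in Ctrl and from 0.92 to 2.51 (median 2.18) in AggE, a change of 0.78 (SE 0.33, adjusted p = 0.17). In Nags too, AggE mouse 1 (0.92) and Ctrl mouse 2 (2.64) stood with the other group. Otc lay between 4.89 and 5.36 in all 6 Ctrl mice and between 2.90 and 5.38 in the AggE mice, a change of -0.96 (SE 0.43, adjusted p = 0.20) that came with an SD of 0.95 in AggE and 0.18 in Ctrl. The Otc change depended on the processing: it was -1.94 with no normalization between arrays, -0.32 with no background subtraction, -0.18 in the scanner's processed signals, -0.17 in Cy5 alone and 0.12 in the series table. Asl, the enzyme after Ass1, ran from 0.74 to 4.00 (median 1.65) in Ctrl and from 1.31 to 3.64 (median 3.25) in AggE, a change of 0.72 (SE 0.41, adjusted p = 0.32). Gls2 was lower in AggE on average (-0.29, adjusted p = 0.30; 0.065 in Cy5 alone). The 7 changes had a median of 0.55 beside 0.0069 over all genes, with 4 of 7 above 0 (a median of -0.023 and an Asl change of -0.023 with slide as a fixed block), and the groups overlapped for all 7 genes (1.79% of all genes did not).

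The second probes did not repeat the 4-wk differences of their genes. The second Glul probe, well above background on 27 of 39 arrays, was 0.13 ± 0.40 (SD, n = 6) in Ctrl and 0.45 ± 0.37 (SD, n = 6) in AggE, a change of 0.32 (SE 0.21, adjusted p = 0.42) in the direction opposite to the first. The second Otc probe was 2.80 ± 0.57 (SD, n = 6) in Ctrl and 2.82 ± 0.56 (SD, n = 6) in AggE, a change of 0.017 (SE 0.33, adjusted p = 0.99). With the 2 probes averaged, the change of Glul at 4 wks was -0.22 (adjusted p = 0.27).

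The 4-wk values of some genes also ran with the slides, on which the groups were nearly separate. Slide 8 held Ctrl mice 1 to 3, slide 9 Ctrl mice 4 to 6 with AggE mouse 1, slide 10 AggE mice 2 to 5 and slide 11 AggE mouse 6. On slide 9, AggE mouse 1 lay at the mean of the 3 Ctrl mice in Ass1 (1.94 against 1.89), Asl (1.31 against 1.27) and Nags (0.917 against 0.915). In Glul it lay below all 3 of them (4.54 against 5.02 to 5.44), as it did in Otc (3.95 against 5.17 to 5.36) and Gls2 (4.195 against 4.56 to 5.06). In Oat it lay above all 3 (1.54 against 0.93 to 1.33). With slide as a fixed block, a fit in which slide 9 links the groups directly and slides 7, 8 and 11 do so through the mice of 1.5 wks, the change was 0.23 for Ass1 (adjusted p = 0.87) and -0.76 for Glul (adjusted p = 0.21). Of the other genes, Otc changed by -1.285, Gls2 by -0.53, Oat by 0.49, Nags by 0.053 and Asl by -0.023 in this fit, none of them called. With slide as a random block the change was 0.84 for Ass1 (adjusted p = 0.33) and -0.77 for Glul (adjusted p = 0.14). The comparison within slide 9 rests on 1 AggE mouse and was not tested.

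Single mice moved these calls. Without Ctrl mouse 2 limma called 4 of the 7 genes: Ass1 (1.62, adjusted p = 0.0027), Glul (-0.94, adjusted p = 0.0029), Nags (1.06, adjusted p = 0.033) and Oat (0.68, adjusted p = 0.031). Without AggE mouse 1 the change of Ass1 was 1.58 (adjusted p = 0.0025), of Glul -0.81 (adjusted p = 0.014) and of Nags 1.01 (adjusted p = 0.049). Leaving out any of the other 10 mice, in turn, ended the call of Ass1, with changes of 1.04 to 1.32 and adjusted p up to 0.12. In these cases limma's unadjusted p for Ass1 stayed between 0.0013 and 0.0069. The call of Glul was lost without Ctrl mouse 1, 3, 4 or 6 or AggE mouse 2, 3 or 6, with changes of -0.80 to -0.68 and an adjusted p up to 0.091. AggE mouse 1 also had the lowest share of probes well above background among the 12 mice (42.0%, the others 46.1% to 70.4%); its part in these values was not tested.

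**Figure D3:**
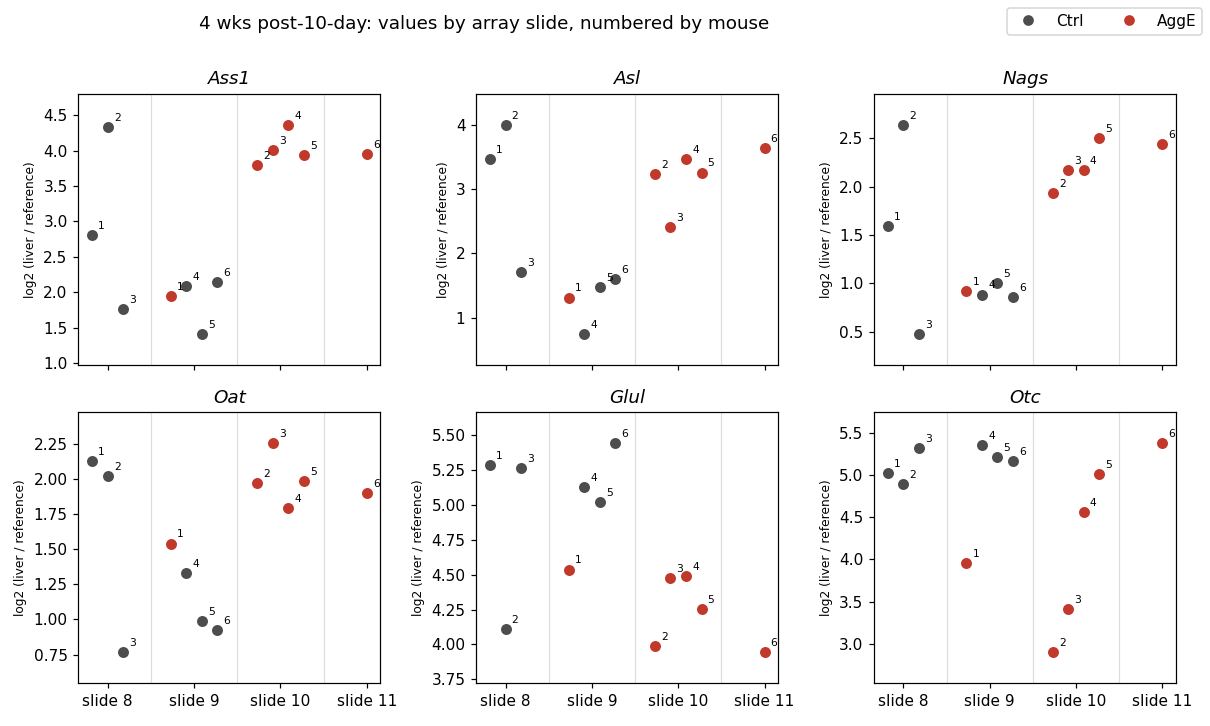
Log2 ratio of liver over reference RNA (y axis of each panel) for 6 genes in the 12 mice at 4 wks, by array slide (x axis), with the number of the mouse beside each point. On slide 9 AggE mouse 1 lies among the 3 Ctrl mice in Ass1, Asl and Nags, below them in Glul and Otc and above them in Oat. On slide 8 Ctrl mouse 2 lies at 4.33 in Ass1 and 4.11 in Glul, near the AggE mice of slides 10 and 11.

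Of the 8 hepatocyte markers, 8 had a lower mean in AggE at 4 wks, with 0 of them called (4.18% of all genes were) and 2 (Serpinc1 and Apoa1) at an unadjusted p of 0.05 (22.8% of all genes), with a median of -0.44. Their summed ratio to reference ran from 612 to 1120 in Ctrl and from 351 to 813 in AggE, and was lowest in AggE mice 1, 2 and 3 (401, 351 and 430), the mice with the lowest Otc. Its part in the lower Otc and Glul values was not tested. Of the 5 bile duct markers, Epcam was called lower at 4 wks (adjusted p = 0.024, where 4.18% of all genes were called), but was well above background in 1 of 6 Ctrl and 0 of 6 AggE mice, so no fold is given. Of the 4 adipose markers, Lep was called higher (adjusted p = 0.034), but was well above background in 1 of 6 Ctrl and 2 of 6 AggE mice, so no fold is given here either. With slide as a fixed block neither call held (adjusted p = 0.12 and 1.00). None of the 11 leukocyte and Kupffer cell markers, 6 endothelial and stellate cell markers or 6 muscle markers was called by limma at any time. At 24 hrs post-10-day stressor 3 of the 11 leukocyte and Kupffer cell markers were higher at an unadjusted p of 0.05, against 2.82% of all genes, and 0 of the 6 muscle markers were, though all 6 had a higher mean in AggE (median 0.47). At the other times at most 2 of a list reached that limit, where 16.7% (24 hrs post-5-day stressor), 2.48% (1.5 wks) and 22.8% (4 wks) of all genes did.

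The change itself was compared between regimens and times in the same fit. For the 5-day minus the 10-day change at 24 hrs, 0 of 7 genes were called (0.0353% of all genes were) and 0 reached an unadjusted p of 0.05 (6.22%). From 24 hrs to 1.5 wks post-5-day stressor, 0 were called (0.0941%) and 0 reached the unadjusted limit (7.58%). From 24 hrs to 4 wks post-10-day stressor, 0 were called (0.0764%), and Ass1 alone reached the unadjusted limit (10% of all genes did). The change of Ass1 was -0.13 at 24 hrs and 1.24 at 4 wks, a difference of -1.37 (SE 0.54, unadjusted p = 0.017, adjusted p = 0.49). The difference for Glul was 0.43 (95% confidence interval -0.18 to 1.05), so its change was not shown to differ between the times.

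Across the 8 groups, the level of most genes differed more between the sampling times than between Ctrl and AggE. Of the 11 slides, 8 held mice of a single sampling time, and slides 6, 8 and 11 held mice of 2 times; the part of slide in these levels was not tested, and they are given without a test. All mice of the 24-hr groups were scanned on day 1 and all of the 4-wk groups on day 2, so sampling time and scan day cannot be told apart between them. Ass1 was highest 24 hrs post-10-day stressor (Ctrl 4.51 ± 0.38, n = 4; AggE 4.39 ± 0.35, n = 5, both SD), followed by 24 hrs post-5-day stressor (4.12 ± 0.23 and 4.02 ± 0.31), neighbours whose ranges overlapped. The AggE mice at 4 wks (3.66) and 1.5 wks (3.52) came next, and the Ctrl mice at 1.5 wks (2.86 ± 0.65) and 4 wks (2.42 ± 1.04) were lowest. Nags was lowest at 1.5 wks in both groups (Ctrl 0.29 ± 0.19, n = 4; AggE 0.50 ± 0.36, n = 5), where it was not well above background in 1 Ctrl and 1 AggE mouse, and between 1.24 and 2.03 in the other 6 groups. Oat was also lowest at 1.5 wks (0.93 ± 0.51 and 0.83 ± 0.27, against group means of 1.36 to 2.60 elsewhere), as was Otc (1.86 ± 1.22 and 2.55 ± 1.20, against 3.43 to 5.16 elsewhere). Glul went the other way, with its highest means at 1.5 wks (5.43 ± 0.20 in Ctrl and 5.24 ± 0.26 in AggE) and its lowest in AggE mice at 4 wks (4.28). The second Glul probe did not show this: its means at 1.5 wks were 0.16 in Ctrl and 0.18 in AggE, below those of the 24-hr groups (0.45 to 0.76). At 1.5 wks that probe was well above background in only 2 of 4 Ctrl and 2 of 5 AggE mice, so these values lay near background. The second Otc probe was, like the first, lowest at 1.5 wks (0.39 in Ctrl and 0.83 in AggE, against 2.17 to 3.18 elsewhere). Asl (group means 2.17 to 3.05) had no clear order, since each group's range overlapped with that of its neighbours. Gls2 was lowest in Ctrl mice at 1.5 wks (4.21 ± 0.26) and highest 24 hrs post-5-day stressor (5.28 ± 0.32 and 5.31 ± 0.31).

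After the group means were removed, mice with high Ass1 also had high Asl (Pearson r = 0.71 over 38 mice), and Asl went with Nags (r = 0.57) and Oat (r = 0.54). Ass1 went with Oat (r = 0.50) and Nags (r = 0.50) over the 39 mice. Glul ran against Nags (r = -0.53) and Asl (r = -0.47) and with Gls2 (r = 0.46). These are descriptions over arrays that share slides and hybridization, with no test. Spread was widest at 4 wks, with SDs in Ctrl and AggE of 1.04 and 0.86 for Ass1 and 1.27 and 0.88 for Asl. In the other groups the SDs were at most 0.65 for Ass1 and 0.72 for Asl. The 4-wk mice therefore weigh most in the r of this pair, and r without them was not computed. Among the genes well above background on all arrays (3166 or 3167 for each member), those most like Ass1 were Dap (r = 0.85) and Tmem176b (r = 0.85), and those most like Otc were Spp2 (r = 0.93) and Leap2 (r = 0.90), both secreted liver proteins. Asl was nearest to Macroh2a1 (r = 0.87) and Akr7a5 (r = 0.86), Nags to Cideb (r = 0.82) and Gfra1 (r = 0.81), and Oat to Bckdhb (r = 0.80), a subunit of the branched-chain ketoacid dehydrogenase, and Ddt (r = 0.75). Glul was nearest to Ndufs3 (r = 0.75) and Rps20 (r = 0.74), and Gls2 to Sod2 (r = 0.75) and Paox (r = 0.75).

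**Figure D4:**
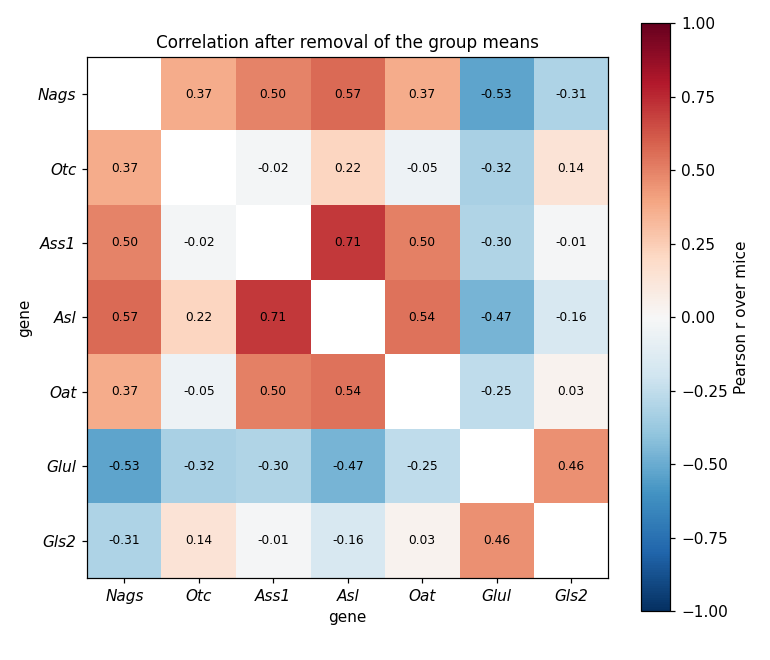
Pearson correlation between the 7 genes (both axes) over the mice, after the mean of each group was removed; color gives r from -1 to 1, and each cell its value. Ass1, Asl, Nags and Oat form a block of positive values (0.37 to 0.71), and Glul is negative with each of them (-0.25 to -0.53).

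Genes around the cycle were called in few cases. Of 16 genes of nitrogen transport on the array, Slc25a22, a mitochondrial glutamate carrier, was called at 4 wks, as were 4.18% of all genes: it ran from -0.085 to 1.20 in Ctrl and from 0.067 to 1.54 in AggE, a rise of 0.82 (SE 0.24, adjusted p = 0.049). The other 15 were not called at any time, among them the aspartate/glutamate carrier Slc25a13. Of 32 genes of amino acid breakdown and transamination, 0 rose and 2 fell at 4 wks, where 4.18% of all genes were called. Glud1, glutamate dehydrogenase, which frees ammonia from glutamate, fell by 0.61 (SE 0.17, adjusted p = 0.035), from 2.59 ± 0.24 in Ctrl to 1.97 ± 0.34 in AggE (SD, n = 6 each). Tdo2, which opens the tryptophan ring, fell by 0.90 (SE 0.25, adjusted p = 0.038), a change that depended on the processing: it was -1.65 with no normalization between arrays, -0.37 in the processed signals, -0.35 with no background subtraction and -0.066 in Cy5 alone (adjusted p = 0.93). At 1.5 wks 0 of the 32 were called, and 5 were higher at an unadjusted p of 0.05 (over all genes 0% and, in either direction, 2.48%), Glud1 among them (0.45, adjusted p = 1.00).

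Of 14 genes of the arginine, ornithine and proline branches, 1 rose and 1 fell at 24 hrs post-5-day stressor, where 3.04% of all genes were called. Odc1, which takes ornithine into polyamines, was -1.43 ± 0.13 (SD, n = 4) in Ctrl and -1.98 ± 0.25 (SD, n = 5) in AggE, a change of -0.55 (SE 0.14, adjusted p = 0.029) on its brightest probe, and of -0.18 (adjusted p = 0.47) with the mean over its probes. Asns, asparagine synthetase, which spends glutamine, was -3.35 ± 0.23 (SD, n = 4) in Ctrl and -2.62 ± 0.40 (SD, n = 5) in AggE, a rise of 0.74 (SE 0.20, adjusted p = 0.039), and its groups did not overlap (7.41% of all genes did not). Neither call held with slide as a random block or with no normalization between arrays, and leaving out single mice ended that of Odc1 in 6 of 9 cases and that of Asns in 7 of 9. The changes were -0.61 (Odc1) and 0.58 (Asns) with the random block, and -0.66 and 0.93 with no normalization between arrays. Without single mice they ran from -0.65 to -0.49 (Odc1) and from 0.595 to 0.857 (Asns). Nos3, the endothelial nitric oxide synthase, which uses arginine, was called higher at 4 wks (0.26, SE 0.070, adjusted p = 0.034), but was well above background in 2 of 6 Ctrl and 4 of 6 AggE mice, so the size of its change is uncertain.

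Of 12 regulators 1 was called at 4 wks, beside 4.18% of all genes: Creb1, which mediates the response to cAMP, fell by 0.37 (SE 0.10, adjusted p = 0.041) on its brightest probe, and the change was -0.11 (adjusted p = 0.18) with the mean over its probes. The glucagon receptor Gcgr (-0.87, adjusted p = 0.10) and Ppargc1a (-0.50, adjusted p = 0.17) did not pass, and 2 of the 12 changes were above 0, with a median of -0.37. Of the zonation marker genes few were called: of 14 periportal genes 1, Ctsc, a lysosomal protease, at 24 hrs post-5-day stressor (0.74, SE 0.16, adjusted p = 0.0093; 3.04% of all genes were called), and of 17 perivenous genes 0 were called by limma at any time (at an unadjusted p of 0.05, 1 was lower at 24 hrs post-5-day stressor, against 16.7% of all genes in either direction, and 1 at 4 wks, against 22.8%). At 4 wks the median change was -0.37 over the periportal list (3 genes higher and 3 lower at an unadjusted p of 0.05, beside the same 22.8%) and 0.020 over the perivenous list. At 1.5 wks 10 of the 14 periportal genes (median 0.20) and 14 of the 17 perivenous genes (median 0.11) had a higher mean in AggE (48.3% of all genes did, and 0 genes of either list were called), and 24 hrs after the 5-day stressor 8 of the 14 (median 0.016) and 4 of the 17 (median -0.19) did, against 49.8% of all genes. Gls2 is itself in the periportal list. The call of Ctsc was lost with slide as a random block (0.78, adjusted p = 0.38) and with no normalization between arrays (0.38, adjusted p = 0.54). It was also lost with the groups of the comparison alone (adjusted p = 0.14), and was kept without any single mouse. None of the 7 list and marker calls at 4 wks (Slc25a22, Glud1, Tdo2, Nos3, Creb1, Epcam and Lep) held with slide as a fixed or as a random block, and with the fixed block the changes were 0.13 for Slc25a22, -0.17 for Glud1, -0.57 for Tdo2, 0.074 for Nos3 and -0.035 for Creb1.

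**Figure D5:**
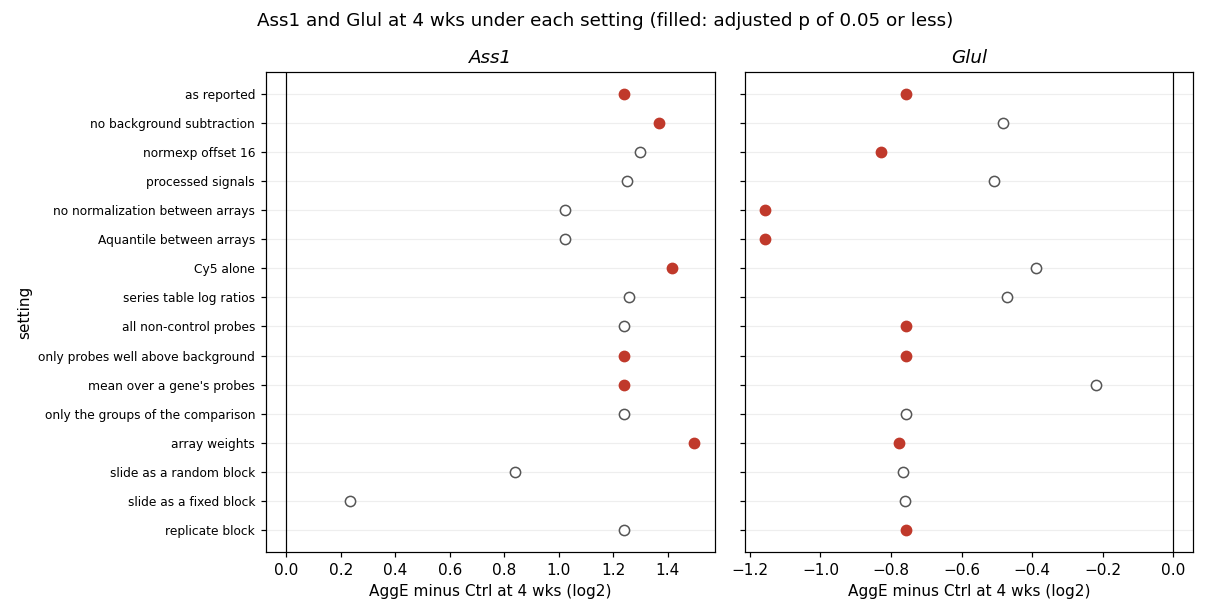
Change of Ass1 and Glul at 4 wks (x axis, AggE minus Ctrl on the log2 scale) as reported and under the 15 other settings (y axis); filled points have an adjusted p of 0.05 or less. Ass1 kept its direction in all 15 (0.23 to 1.50) and its call in 5, and Glul its direction in all 15 (-1.16 to -0.22) and its call in 7.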

How the data were processed

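Liver RNA of 39 mice was hybridized, each on a 2-color Whole Mouse Genome array (Cy5 liver, Cy3 reference, no dye swap). Groups follow the channel-2 source names; at 1.5 wks, a code for 10 sessions stands in all 5 AggE titles and in 1 of 4 Ctrl titles, and 24 hrs after the 5-day stressor all 5 AggE descriptions name 1 day. The authors deposited the median intensity of each spot together with that of the area around it, read by Agilent Feature Extraction (11.5.1.1 per the file headers). The deposited processed signals were background-corrected and dye-normalized intensities. The deposited series table holds log10 ratios of Cy5 over Cy3, equal to the scanner files' log ratio within a relative difference of 0.005, and 0 for 10.7% to 48.9% of spots per array; its column medians ran from -0.034 to 0.018.

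Intensities were background-corrected (normexp, offset 50), loess-normalized within and quantile-normalized between arrays with limma 3.58.1 (R 4.3.3, statmod 1.5.0). Control spots were left out, outlier spots set to missing, spots of a probe averaged, and probes of RefSeq transcripts kept, with symbols from a GRCm38.p6 table (no coordinates taken). All 39 arrays entered a single limma model of 8 group means. Contrasts were tested with its moderated t and Benjamini-Hochberg adjustment over 25903 probes, and a gene was called at an adjusted p of 0.05 or less. The scripts were tested on simulated data. The low number of arrays per group limits the precision, and the p-values measure the spread between mice of a group, 1 array each. Each group lies on 1 to 3 slides, so this spread does not fully hold that between slides. With slide as a random block the consensus correlation within slides was 0.32.

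The members and gene lists were chosen with earlier results of these data known. An item of the list is not reported here, and the members' counts and medians leave it out. Named were all members, the 3 genes of the nitrogen lists that rose most and the 3 that fell most per contrast, if called, and for each member the 2 genes correlating best with it after removal of group means. Gcgr, Ppargc1a, Slc25a13, the marker genes and Glud1 at 1.5 wks were named after their values were seen. Lists cover nitrogen transport, amino acid breakdown, the arginine, ornithine and proline branches, regulators, periportal and perivenous hepatocyte genes, and markers of hepatocytes, leukocytes and Kupffer cells, erythroid cells, muscle, pancreas, intestine, kidney, bile duct, adipose tissue, and endothelium with stellate cells. Alternatives were other background, normalization, probe and sample choices, slide, scan day or replicate number as a block, and leaving out each mouse in turn. Deviations of same-numbered mice of a comparison correlated by -0.45 to 0.50 over 18 pairs. These correlations cannot show whether the numbers pair the mice, and the main fit treats the mice as unpaired.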

Additional observations from a re-analysis of the deposited data

Results flagged for a closer look

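Of 55 sets of 4 to 6 values (a gene in a group), 6 held a highest or lowest mouse that was set apart by Dixon's criterion; chance alone sets apart about 1 in 20 such sets. At 24 hrs post-5-day stressor, Ctrl mouse 3 was high in Ass1 (4.47, the others 3.97 to 4.04), Ctrl mouse 2 was low in Asl (2.16, the others 3.19 to 3.40), and AggE mouse 5 was high in Otc (4.43, the others 2.98 to 3.33). At 4 wks post-10-day stressor, Ctrl mouse 2 was low in Glul (4.11, the others 5.02 to 5.44), and AggE mouse 1 was low in Ass1 (1.94, the others 3.80 to 4.36) and in Nags (0.92, the others 1.94 to 2.51). No difference of a change between regimens or times passed the adjusted test, over 21 differences.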

How the results depend on the processing

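The count of members called at 4 wks post-10-day stressor (2: Ass1 and Glul) was the sole member count that moved. It was 1 with no background subtraction, with Cy5 alone and with the mean over a gene's probes (Ass1 in each), and 1 with a normexp offset of 16, with Aquantile, with no normalization between arrays, with all non-control probes and with the replicate block (Glul in each). It was 0 with the processed signals, with the log ratios of the series table (6 members measured), with the groups of the comparison alone, and with slide as a random or as a fixed block, the latter with a members' median of -0.20 at 1.5 wks and -0.023 at 4 wks. Leaving out each mouse in turn gave 0 to 4. The counts at the other times and of the differences stayed at 0 under every setting run for them, the replicate block included, which changed no other member call; slide as a fixed block was run for 1.5 wks and 4 wks, and scan day for the 1.5-wk mice. Of 47 uncalled changes, none was called in the opposite direction in 1325 recomputations, and 5 were newly called: Nags with array weights (0.98, adjusted p = 0.038) and without AggE mouse 1 or Ctrl mouse 2, and Oat without Ctrl mouse 1 (0.70, adjusted p = 0.044) or 2. With no normalization between arrays or with Aquantile, which leaves these ratios as they were, the median change of the members was 0.38 at 4 wks and, at 24 hrs, -0.51 after 5 and -0.30 after 10 sessions. Of the list and marker calls, 4 at 24 hrs post-5-day stressor (Odc1, Asns, Ctsc and Spp1) and 7 at 4 wks, 0 were kept in either set with the groups of the comparison alone or with slide as a random block. With no normalization between arrays 0 of the 4 and 4 of the 7 were kept, with no background subtraction 3 and 0, with the processed signals 2 and 0, and with the replicate block 3 and 5. Epcam was 0.011 with no normalization between arrays and with Aquantile, and Lep -0.000102 with slide as a fixed block, both turned in direction. Leaving out single mice kept Ctsc and Spp1 in all 9 cases; the calls at 4 wks were each lost in 4 (Epcam) to 9 (Slc25a22 and Creb1) of 12 cases and kept in every case without AggE mouse 1 or Ctrl mouse 2. The cause was not tested. Scan day as a block was added after the data were seen.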

Other observations

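The marker lists not described above gave 0 calls by limma at every time, for the erythroid (4 genes on the array), pancreas (6), intestine (6) and kidney (5) lists. At an unadjusted p of 0.05, 1 gene of each list passed at 24 hrs post-5-day stressor (16.7% of all genes did), 1 erythroid gene at 24 hrs post-10-day stressor (2.82%), none at 1.5 wks (2.48%), and 1 erythroid, 2 pancreas and 1 intestine gene at 4 wks (22.8%). The summed ratio of the intestine list, carried mostly by Fabp2 (the 1 gene of 6 well above background on any array there), ran at 24 hrs post-5-day stressor from 26.5 to 52.6 in Ctrl and from 13.5 to 20.7 in AggE, while 3 of the 6 genes had a higher mean in AggE (median change -0.0012). The sum ran from 26.9 to 50.6 and from 18.5 to 28.2 at 24 hrs post-10-day stressor, from 7.52 to 16.4 and from 8.18 to 21.9 at 1.5 wks, and from 21.0 to 47.1 and from 13.01 to 24.7 at 4 wks. Fabp2 itself was not called at any time (adjusted p of 0.052 or more). Of the bile duct list, Spp1 was called higher at 24 hrs post-5-day stressor (1.28, SE 0.25, adjusted p = 0.0041), where 3.04% of all genes were called, and its call held without any single mouse but not with slide as a random block or with no normalization between arrays.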
